A study of Zea mays with 4 samples.

Results

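The genes described here are the 5 maize genes of the mesophyll (MS) branch of C4 carbon capture, out of 46430 genes counted. They are defined by gene identifier: the carbonic anhydrase CAH1 (Zm00001d044099), the phosphoenolpyruvate (PEP) carboxylase PEP1 (Zm00001d046170), the NADP-dependent malate dehydrogenase MDH6 (Zm00001d031899), the pyruvate, phosphate dikinase PDK1 (Zm00001d038163) and the dikinase regulatory protein PDRP1 (Zm00001d006520). Their mRNA was measured by bulk RNA-seq in 2 protoplast libraries (protoplast 1 and protoplast 2), from cells freed of the leaf with cell wall digesting enzymes, and in 2 libraries from undigested leaf segments (leaf 1 and leaf 2). All plants were B73, the inbred line of the maize reference genome, at the V2 stage with no mutation named. The tissue was the distal 6 cm of leaf 2. The only treatment was protoplasting, which per the methods joins scoring of the leaf, pretreatment in cysteine and sorbitol, enzyme digestion and repeated washing. Leaf tissue came from sibling plants and was frozen when tissue for protoplasting was taken. The groups therefore differ in all of these steps and in the time they took, which cannot be told apart here. The labels give 6 plants per pool, as the methods text does where it describes protoplast pools. For the bulk libraries that text counts leaves or leaf segments instead and gives a smaller number.

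In C4 leaves such as those of maize, carbonic anhydrase turns CO2 into bicarbonate in the MS cytosol, and PEP carboxylase fixes it into oxaloacetate. NADP-malate dehydrogenase in the MS chloroplast reduces this to malate, which moves to the bundle sheath (BS), where malic enzyme releases CO2 next to Rubisco. The pyruvate that returns is made into PEP again by pyruvate, phosphate dikinase, whose activity is switched by light through its bifunctional regulatory protein. Standard digestion of maize leaves frees MS cells more readily than BS cells.

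Total counts in the 3 complete libraries were 47061988 and 42815615 in protoplasts and 41792981 in leaf 2. The leaf 1 table used here breaks off within chromosome 3, which leaves 18609 genes with counts in all 4 libraries. Of the 5 genes, only MDH6 and PDRP1 have a leaf 1 value. The fit over the 4 libraries therefore covers MDH6 and PDRP1, and a second fit over the 3 complete libraries covers all 5 genes, with leaf 2 as the only leaf library and assumed to vary like the protoplast libraries. Levels are in CPM, the counts of a gene scaled to a fixed total per library after TMM scaling, and the CPM of the 2 fits are on different scales, because those of the first count only the shared genes. Genes were called at an adjusted p under 0.05 in the quasi-likelihood test of edgeR, adjusted by Benjamini-Hochberg over every gene tested in that fit. Plastid genes took 1.91% and 3.66% of the counts in protoplasts and 1.02% in leaf 2. Their part in the results below was tested only by leaving organelle genes out of the fit over the complete libraries. In the fit over the 4 libraries this removed no tested gene, so their part was not tested there.

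The genes lie on 5 chromosomes in AGPv4, the genome build of the count tables. CAH1 is at chr3:219075378-219082694 on the minus strand, with 15 merged exons. PEP1 is at chr9:68851094-68856482 on the minus strand, with 10 exons. MDH6 is at chr1:205992135-205996030 on the minus strand, with 13 merged exons. PDK1 is at chr6:150024486-150035717 on the plus strand, with 16 merged exons. PDRP1 is at chr2:210399298-210402238 on the plus strand, with 3 exons. None of the 5 gene models overlaps another annotated gene. Counting covered all exons of a gene, so the values do not separate transcripts of 1 gene.

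MDH6 was also the MS reference that the study amplified by qRT-PCR while it tested digestion protocols, and its primers are shown because the counts below measure that same reference across the digestion. They are printed 5′ to 3′ in lower case, forward (F) with 21 bases and reverse (R) with 19.
MB_NADP-MDH-F: gggaagtcagcattggcatag
MB_NADP-MDH-R: acaactaagactttcgcgt

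The carbon capture genes were among the most abundant mRNAs of both sample types. Together they took 6.54% of all counts in protoplast 1 and 6.20% in protoplast 2, against 7.09% in leaf 2. The 95% Wilson intervals, which cover counting error only, were 6.19% to 6.21% for protoplast 2 and 7.08% to 7.10% for leaf 2. PEP1 and PDK1 held the first 2 ranks by counts in each complete library, in opposite order: PDK1 was first in both protoplast libraries, with 1537781 and 1357339 counts, and PEP1 was first in leaf 2, with 1239452 counts. On the TMM scale used for the levels below, which weighs the libraries differently, the same sum was 66999 and 71771 CPM in protoplasts, against 59859 CPM in leaf 2, so the direction of the sum depends on the scaling. CAH1 ranked 7 and 5 in protoplasts and 8 in leaf 2. MDH6 ranked 35 and 55 in protoplasts and 55 in leaf 2, and PDRP1 ranked 99 and 112 in protoplasts and 122 in leaf 2.

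Per kb of gene length the order of the levels was close to the same in the 3 complete libraries. PEP1 stood at 6742 and 7044 CPM per kb in protoplasts and 7669 in leaf 2. PDK1 stood at 6478 and 7103 CPM per kb in protoplasts and 4801 in leaf 2. The PEP1 and PDK1 levels interleaved in protoplasts and so did not differ beyond their spread there, while in the single leaf library PEP1 was above PDK1. CAH1 came next with 3793 and 4281 CPM per kb in protoplasts and 3473 in leaf 2, then MDH6 with 1481 and 1256 in protoplasts and 1207 in leaf 2, and PDRP1 with 793 and 790 in protoplasts and 564 in leaf 2. These neighbours did not overlap in protoplasts. The merged model of PDK1 counts 5166 bases from 615 exon entries, so its level per kb is lower than it would be over a single transcript.

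**Figure D1:**
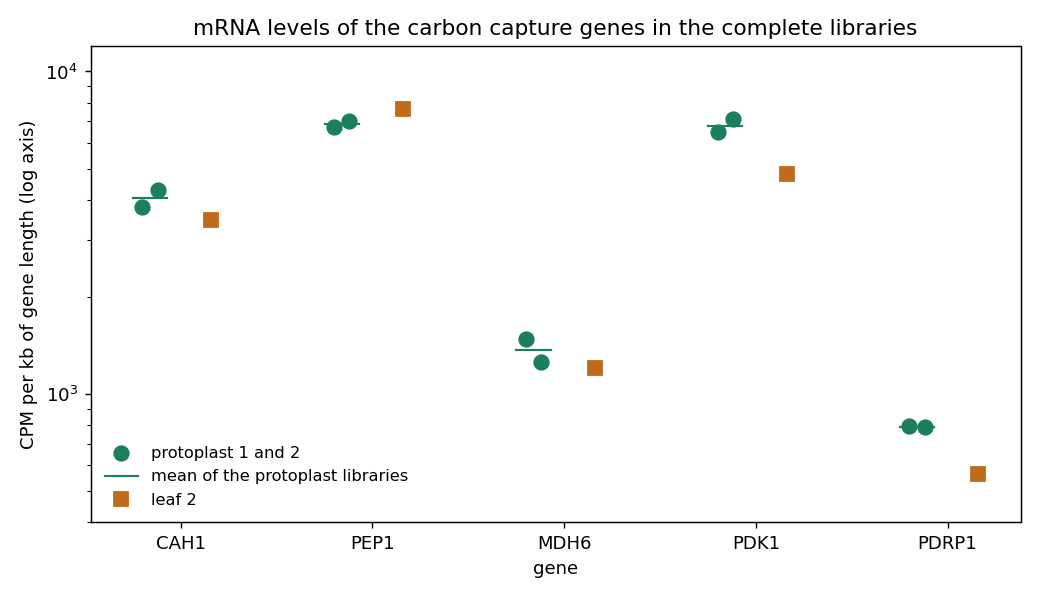
CPM per kb of gene length, on a log axis, for the 5 genes in the 3 complete libraries, with circles for protoplast 1 and 2, a line for their mean and squares for leaf 2. PEP1 is the only gene whose leaf 2 value (7669) lies above both protoplast values, and for PDK1 (4801) and PDRP1 (564) leaf 2 lies well below both.

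None of the 5 genes was called different between protoplasts and leaf in the complete libraries, where 46.2% of the 23262 genes tested were called in either direction, 22.4% as higher and 23.9% as lower. Their median log2 fold change, protoplast over leaf, was 0.22, beside -0.04 over all genes tested, and the median size of the change over all genes was 0.87. Each of the 5 changes was smaller than that. No member had an unadjusted p under 0.05 in edgeR, against 12334 of all genes tested, and DESeq2 and limma-voom also called 0 of 5. The intervals of the single genes were wide, with 1 leaf library, so equal levels are not shown either.

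CAH1, which supplies bicarbonate to PEP carboxylase, had 7540 and 8511 CPM in protoplasts, against 6905 CPM in leaf 2. Both protoplast values were above the leaf value, the nearer by less than the protoplast libraries differed from each other. The log2 fold change was 0.22 (SE 0.37, 95% interval -0.62 to 1.05, adjusted p = 0.662 in edgeR). Without TMM scaling it was -0.15, so its direction rests on the scaling.

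CAH1 sits in a run of related genes on chromosome 3, and how reads shared by near-identical copies were counted is not given in the sources used here, so counts of these copies are uncertain. Carbonic anhydrase3 (Zm00001d044096), at chr3:219038137-219043860, had 24.1% and 17.1% of the CAH1 counts in protoplasts and 21.1% in leaf 2. Beta carbonic anhydrase 4 (Zm00001d044095), at chr3:219031166-219034215, had at most 0.215% of them, in leaf 2. Summed over the 3 genes, log2 differences from leaf 2 were 0.16 for protoplast 1 and 0.25 for protoplast 2. CAH1 makes up most of this sum, so the sum cannot show how shared reads affected the CAH1 value. That effect was not tested.

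PEP1, the enzyme that captures bicarbonate, had 22012 and 22999 CPM in protoplasts, against 25039 CPM in leaf 2. It was the only one of the 5 whose protoplast values both lay below leaf 2. The log2 fold change was -0.15 (SE 0.38, 95% interval -1.005 to 0.70, adjusted p = 0.765 in edgeR), and scaled to the MS1 markers described below it was 0.45.

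MDH6, which makes the malate that is sent to the BS, was measured in all 4 libraries. On the scale of the shared genes it had 7694 and 6523 CPM in protoplasts, against 6219 and 6204 CPM in leaf. The SD was 828 CPM in protoplasts and 11 CPM in leaf (n = 2 each), with no overlap between the groups. The log2 fold change was 0.19 (SE 0.14, 95% interval -0.16 to 0.54, adjusted p = 0.279 in edgeR), and the test did not pass. Without protoplast 2, the library nearer to leaf, the value was 0.27 with an adjusted p of 0.0118, and without protoplast 1 it was 0.08 with an adjusted p of 0.438, both in edgeR. In these fits the lone protoplast library is assumed to vary like the leaf libraries, which alone supply the spread and are the closer pair. Without TMM scaling the value was -0.09, and scaled to the MS1 markers it was 0.59 with an adjusted p of 0.0129 in edgeR.

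PDK1, which restores PEP, had 33466 and 36694 CPM in protoplasts, against 24804 CPM in leaf 2. Both protoplast libraries were above leaf 2 by more than they differed from each other. The log2 fold change was 0.50 (SE 0.39, 95% interval -0.39 to 1.39, adjusted p = 0.327 in edgeR), a fold of 1.41 that did not pass the test. Its value was above 0 in each of the other 11 settings run over the complete libraries, and without TMM scaling it was 0.13.

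PDRP1, the kinase and phosphatase that switches the dikinase, was called in the fit over 4 libraries, where MDH6 was the other carbon capture gene tested. Over the shared genes it had 3682 and 3665 CPM in protoplasts, against 2587 and 2591 CPM in leaf. The SD was 12 CPM in protoplasts and 2.89 CPM in leaf (n = 2 each), and the groups did not overlap. PDRP1 was higher in protoplasts by a log2 fold change of 0.50 (SE 0.13, 95% interval 0.19 to 0.82, adjusted p = 0.0150 in edgeR), a fold of 1.42. One call among the 2 genes tested compares with 63.3% of the 9017 genes tested that were called in this fit, 31.1% of them as higher, so the call does not set PDRP1 apart from genes in general. No carbon capture gene passed the additional limit of a log2 fold change beyond 1, past which 43.0% of the genes tested were called in this fit and 38.9% in the complete libraries.

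The PDRP1 call was lost without TMM scaling and without either leaf library. Without TMM scaling the log2 fold change was 0.21 with an adjusted p of 0.261, and without leaf 1 or leaf 2 it was 0.50 or 0.46 with adjusted p of 0.232 or 0.259, all in edgeR, with the lone leaf library assumed to vary like the protoplast libraries. In the complete libraries it was 0.49 (SE 0.34, adjusted p = 0.268 in edgeR), with 1288 and 1283 CPM in protoplasts and 917 CPM in leaf 2.

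**Figure D2:**
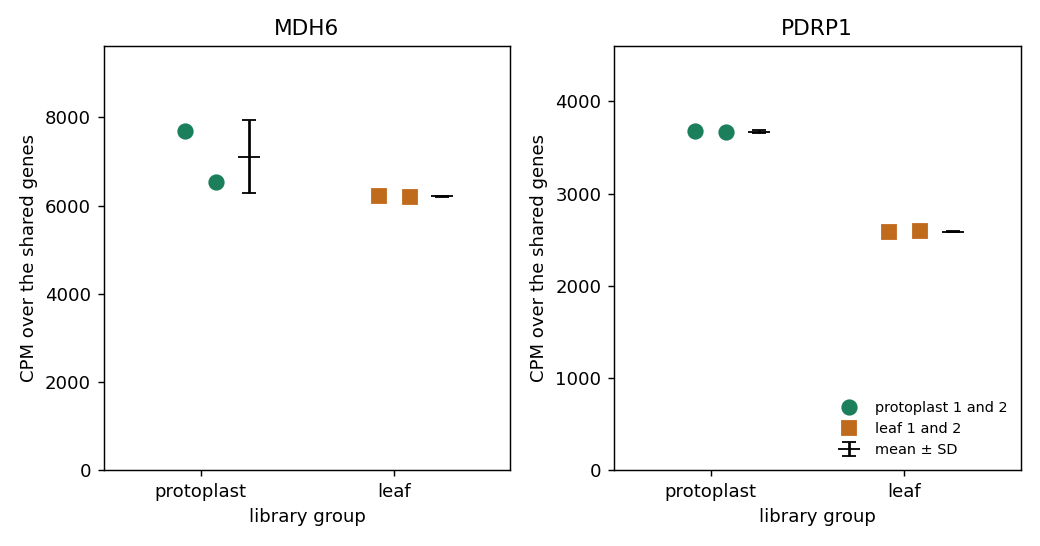
CPM over the genes shared by all 4 libraries for MDH6 (left) and PDRP1 (right), with circles for the protoplast libraries, squares for the leaf libraries and black marks for the mean ± SD of each group (n = 2). The PDRP1 protoplast libraries (3682 and 3665 CPM) are well apart from the leaf libraries (2587 and 2591 CPM), whereas MDH6 in protoplast 2 (6523 CPM) is close to leaf.

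Ratios between the genes within a library do not depend on scaling. The ratio of PEP1 to PDK1 counts was 0.658 and 0.627 in protoplasts, against 1.01 in leaf 2, a log2 difference of -0.65. The protoplast libraries differed from each other by 0.07 in log2 ratio, much less than either differed from leaf 2. The PEP1 to PDRP1 ratio was 17.1 and 17.9 in protoplasts and 27.3 in leaf 2. The dikinase and its regulator had close ratios in all 3 libraries, with 26.0 and 28.6 counts of PDK1 for each count of PDRP1 in protoplasts and 27.1 in leaf 2, so the leaf value lay between the protoplast values. The CAH1 to MDH6 ratio was 2.80 and 3.73 in protoplasts and 3.15 in leaf 2, again between them.

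For the pair with both leaf libraries, MDH6 to PDRP1, the ratio was 2.09 and 1.78 in protoplasts, against 2.40 and 2.39 in leaf. The groups did not overlap, and the exact two-sided permutation test gave p = 0.33, the smallest that 2 against 2 libraries allow. Of the 10 pairs formed from the 5 genes, the other 9 have a single leaf library and no test. Dividing by gene length moves a ratio by the same amount in every library and left each of the 10 differences as it was.

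**Figure D3:**
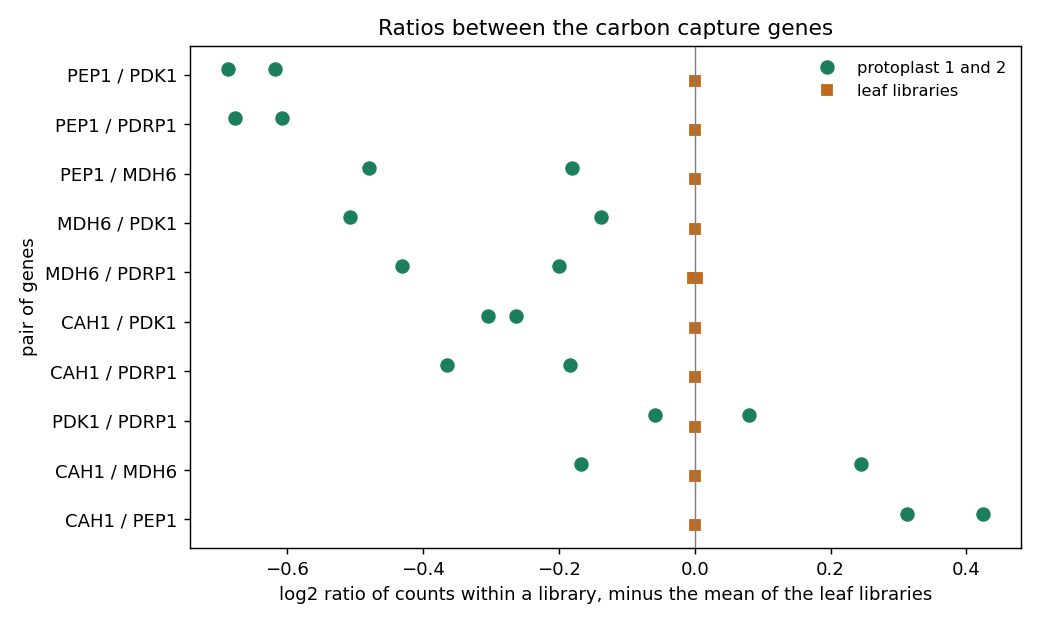
Log2 ratio of counts within a library for the 10 pairs of genes, minus the mean of the leaf libraries, with circles for the protoplast libraries above squares for the leaf libraries of each pair. The PEP1 to PDK1 pair has the lowest mean (-0.65), and the protoplast values of the PDK1 to PDRP1 and CAH1 to MDH6 pairs lie on both sides of leaf.

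BS markers were lower in protoplasts by widely differing amounts. All 12 BS markers tested were lower in protoplasts in the complete libraries, where 23.9% of genes were called lower, with log2 fold changes between -7.02 and -0.86 and a median of -5.42. RBCS2 and RBCS1, the Rubisco small subunits, had 45.0 and 45.7 CPM and 69.5 and 65.8 CPM in protoplasts, against 2621 and 2945 CPM in leaf 2. SUT1, a sucrose transporter of companion cells and the 1 vascular gene listed, was at 0.413 and 0.351 CPM in protoplasts and 308 CPM in leaf 2. The 12 BS markers summed to 1347 and 1362 CPM in protoplasts and 31108 CPM in leaf 2. In bulk samples fewer cells of a type and less RNA per cell cannot be told apart, and the part of this difference in the values of the carbon capture genes was not tested.

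Among other MS genes, GLYK and GLN4 were not called, and more of the MS1 markers were called lower than higher. GLYK, the glycerate kinase of photorespiration, had 559 and 510 CPM in protoplasts and 336 CPM in leaf 2 (log2 fold change 0.67, adjusted p = 0.121 in edgeR). GLN4, a glutamine synthetase, had 171 and 174 CPM in protoplasts and 129 CPM in leaf 2 (log2 fold change 0.42, adjusted p = 0.267 in edgeR). The MS1 markers are genes enriched in 1 of several MS clusters of single cells. There are 56 of them, and 0 of the 5 carbon capture genes are among them. Of these 56, 20 were called lower, 4 higher and 32 neither, beside 23.9% lower and 22.4% higher over all genes tested. Their median log2 fold change was -0.63, beside 0.22 for the carbon capture genes and -0.04 over all genes tested. Their sum was 70981 and 60600 CPM in protoplasts and 84470 CPM in leaf 2.

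Among the other carbonic anhydrases, 1 of 4 was called higher and 2 lower, where 22.4% of all genes were called higher and 23.9% lower. Carbonic anhydrase3 had 1818 and 1454 CPM in protoplasts and 1454 CPM in leaf 2 and was not called. Beta carbonic anhydrase 4 was lower, with 8.18 and 9.89 CPM in protoplasts and 14.9 CPM in leaf 2 (log2 fold change -0.72, adjusted p = 0.0267 in edgeR). The 2 alpha carbonic anhydrases moved in opposite directions. Alpha carbonic anhydrase 1 (Zm00001d003781) was lower, with 3.55 and 4.25 CPM in protoplasts and 197 CPM in each leaf library on the scale of the shared genes. Alpha carbonic anhydrase 7 (Zm00001d050011) was higher, with 92.1 and 154 CPM in protoplasts and 4.32 CPM in leaf 2 (log2 fold change 4.83, SE 0.46, adjusted p = 5.09e-05 in edgeR). At their highest, these alpha genes stayed far below CAH1.

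The partners of the dikinase reaction were split. Pyruvate orthophosphate dikinase4 (Zm00001d022274) was lower, with 159 and 112 CPM in protoplasts and 381 CPM in leaf 2 (log2 fold change -1.49, adjusted p = 0.00412 in edgeR), and its counts were 0.475% and 0.304% of those of PDK1 in protoplasts and 1.54% in leaf 2. The second regulatory protein, PDRP2 (Zm00001d021672), was lower: it had 1.85 and 2.03 CPM in protoplasts and 127 CPM in leaf 2 (log2 fold change -6.03, SE 0.27, adjusted p = 8.98e-07 in edgeR). PDRP2 counts were 0.144% and 0.158% of those of PDRP1 in protoplasts and 13.8% in leaf 2. The log2 fold change of PDRP2 lay within the range of the BS markers, between -7.02 and -0.86. That range is wide and also holds the -1.49 of pyruvate orthophosphate dikinase4. It does not give the cell type of PDRP2, which was not tested.

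Adenylate kinase and inorganic pyrophosphatase remove the AMP and pyrophosphate that the dikinase releases. Adenylate kinase1 (Zm00001d035034), named for its abundance after its values were seen, had 1983 and 1675 CPM in protoplasts and 1725 CPM in leaf 2, so leaf 2 lay between the protoplast values. The 3 partners called higher were low in leaf 2: the adenylate kinase Zm00001d026584 with 16 and 32 CPM in protoplasts and 2.77 CPM in leaf 2, soluble inorganic pyrophosphatase 4 (Zm00001d035616) with 122 and 173 CPM in protoplasts and 34.0 CPM in leaf 2, and soluble inorganic pyrophosphatase 1 (Zm00001d010171) with 14.3 and 17.7 CPM in protoplasts and 7.41 CPM in leaf 2. In all, 3 of 9 partners were called higher and 4 lower, beside 22.4% and 23.9% of all genes, with a median log2 fold change of -0.60, beside -0.04 over all genes.

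The genes listed as transporters of C4 acids, PEP or triose phosphates across the chloroplast envelope were mostly lower. Of 7, 4 were called lower and 1 higher in the complete libraries, where 23.9% of all genes were lower and 22.4% higher, and 5 of 5 were lower in the fit over 4 libraries, where 32.2% of genes were called lower. The oxoglutarate/malate transporter OMT1 (Zm00001d023929) had 1398 and 1085 CPM in protoplasts, against 2060 and 1969 CPM in leaf (log2 fold change -0.70, SE 0.17, adjusted p = 0.0116 in edgeR). In the complete libraries the OMT1 value was -0.68, and OMT1 is not among the 4 called lower there. The dicarboxylic acid transporter1 (Zm00001d005950) had 250 and 182 CPM in protoplasts, against 422 and 385 CPM in leaf (log2 fold change -0.90, SE 0.19, adjusted p = 0.00629 in edgeR). The transporter called higher was annotated as a probable sodium/metabolite cotransporter BASS4 (Zm00001d039061), a name that gives none of these substrates. It had 88.5 and 99.1 CPM in protoplasts and 51.3 CPM in leaf 2 (log2 fold change 0.87). The dicarboxylic acid transporter2 (Zm00001d031253), chosen after its values were seen, had 17.6 and 18.5 CPM in protoplasts, against 1555 and 1447 CPM in leaf. The list does not separate transporters of MS cells from those of BS cells, and the cell type of these genes was not tested.

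Of the other 4 malate enzymes, 3 were called lower and 1 higher, beside 23.9% and 22.4% of all genes tested. The malate dehydrogenase MDH (Zm00001d034241), which is also counted among the BS markers, had 358 and 270 CPM in protoplasts, against 556 and 563 CPM in leaf (log2 fold change -0.83, SE 0.18, adjusted p = 0.00660 in edgeR). The cytoplasmic malate dehydrogenase (Zm00001d032695) had 387 and 379 CPM in protoplasts, against 920 and 914 CPM in leaf (log2 fold change -1.26, SE 0.14, adjusted p = 0.000381 in edgeR). Of the 2 remaining malic enzymes, Zm00001d037693 was lower, and Zm00001d010358 had 34 and 27 counts in protoplasts and 0 in leaf 2, at least 12.1-fold higher against a floor of 3 counts in that library.

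NADP-malate dehydrogenase is activated by thioredoxin in the chloroplast. Of 8 genes of the plastid thioredoxin system, 6 were not called, 1 was higher and 1 lower, where 46.2% of all genes were called, with a median log2 fold change of -0.04, beside -0.04 over all genes. Thioredoxin F2 (Zm00001d010871) had 432 and 391 CPM in protoplasts and 430 CPM in leaf 2, and thioredoxin F-type (Zm00001d012083) had 194 and 186 CPM in protoplasts and 185 CPM in leaf 2. Thioredoxin M3 (Zm00001d003667) was higher, with 45.1 and 76.6 CPM in protoplasts, against 4.83 and 3.94 CPM in leaf (log2 fold change 3.79, SE 0.30, adjusted p = 9.54e-05 in edgeR). The thioredoxin M1 gene Zm00001d017379 was lower, with 30.8 and 23.3 CPM in protoplasts and 49.6 CPM in leaf 2 (adjusted p = 0.0213 in edgeR).

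For each carbon capture gene, the gene with the most similar levels, outside the lists of genes by role and cell type named above but with MS1 markers included, was found as the smallest Euclidean distance of log2 CPM per kb over the 3 complete libraries. Of the 5 nearest genes, 3 are MS1 markers: those of PEP1, CAH1 and PDK1. The 23262 genes tested include 56 MS1 markers, and their share among genes of like abundance was not computed. The distance compares levels, so abundance weighs on it and the count does not show a shared change. For PEP1 this was Zm00001d021435 at a distance of 0.100, with 7131 and 6774 CPM per kb in protoplasts and 7754 in leaf 2. For PDRP1 it was Zm00001d009929 at a distance of 0.147, with 866 and 756 CPM per kb in protoplasts and 548 in leaf 2. The distances were 0.223 for MDH6 (Zm00001d016561), 0.285 for CAH1 (Zm00001d009589) and 0.395 for PDK1 (Zm00001d018797). With few genes at such levels, the nearest gene of PDK1 had a log2 fold change of 0.10, against 0.50 for PDK1 itself.

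The scaling sets the direction of some of these values. Library totals without TMM moved the median of all genes by -0.36 in log2 in the complete libraries, and scaling to the MS1 markers moved it by 0.59. Relative to the median of all genes, which takes such a shift out by construction, the reported values were 0.54 for PDK1, 0.53 for PDRP1, 0.26 for CAH1, 0.22 for MDH6 and -0.11 for PEP1. Scaling moves all genes alike and cannot change their order, but leaving out a library can. Without protoplast 2, PDRP1 (0.495) was above PDK1 (0.437) and MDH6 (0.30) was above CAH1 (0.13), the opposite of the reported order.

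**Figure D4:**
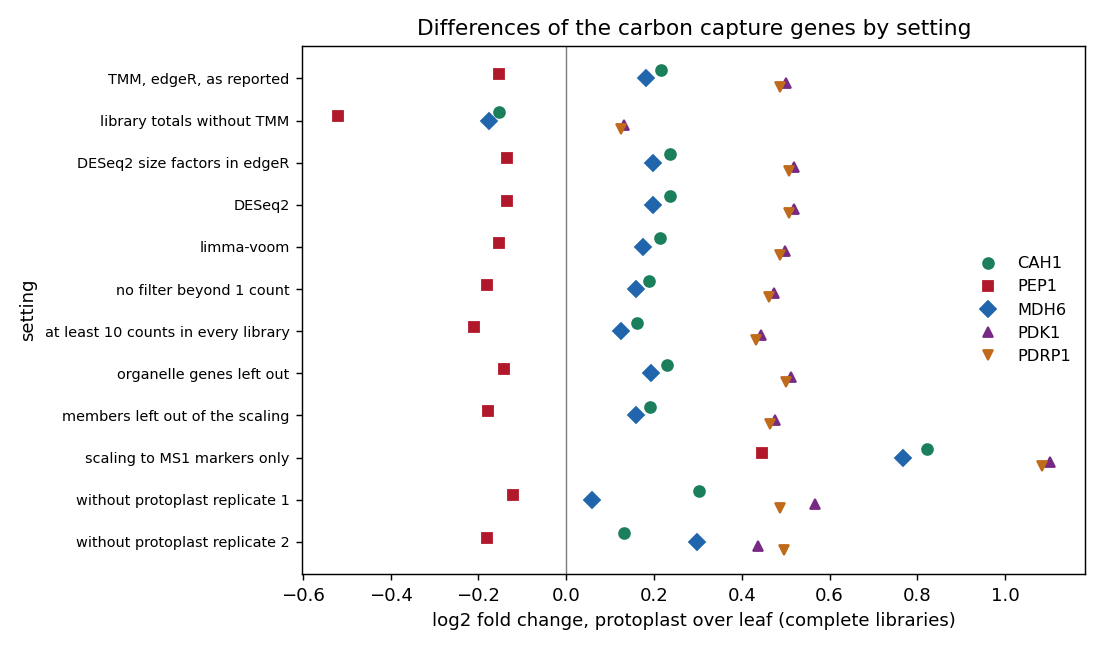
Log2 fold change, protoplast over leaf, of the 5 genes in the complete libraries under the reported setting (top) and 11 others, with 1 marker for each gene. PDK1 and PDRP1 are the highest and PEP1 the lowest in each setting, while without TMM scaling CAH1 and MDH6 lie below 0 and scaled to the MS1 markers PEP1 lies above it.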

How the data were processed

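Per the methods and the submitters' processing notes, the authors used Trim Galore 0.6.5 for trimming, STAR 2.5.1b for alignment to AGPv4 of B73 and featureCounts 2.0.1, and deposited raw counts per gene. The settings for strand and for reads that map to several places are not given in the sources used here. All 4 libraries were sequenced on 1 lane. A leaf 1 count was kept where its line carried the same annotation as in the complete tables, so 10 lines were dropped and 18609 of 46430 genes kept.

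Counts were filtered with edgeR's filterByExpr by group and scaled with TMM, and protoplasts were compared with leaf by the robust quasi-likelihood test (edgeR 4.0.16, R 4.3.3), with no replicate block. Standard errors come from the log2 fold change and its F statistic, and intervals cover 95%. The code of the fits was run on simulated counts with few genes changed, evenly up and down, and the same variability for every gene. These data differ in that respect, so the run cannot test the scaling or the calls reported here. Figures were drawn with matplotlib 3.10.9. Alternatives used limma 3.58.1, DESeq2 1.42.0, other scalings and filters, and each library left out in turn. A count of 3 corresponds to 0.0606 to 0.0811 CPM in the complete libraries. Intervals and floors from counts cover counting error only, because PCR copies of a molecule were not told apart. The methods describe the pools as independently grown plants.

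The genes and lists were chosen with earlier results of these data known, and no list is independent support. Named genes are the 5 genes, the first 2 of each list in listed order, any list gene called in a direction opposite to the rest, and for each of the 5 genes the 1 gene of most similar level outside these lists, MS1 markers included. Alpha carbonic anhydrase 1, adenylate kinase1, the dicarboxylic acid transporter2 and the malic enzyme Zm00001d037693 fall outside this rule and were chosen after their values were seen. Gene names come from the study's tables. MS1 markers were taken at an avg_logFC above 0.5 and an fdr under 0.05 in the study's single cells.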

Additional observations from a re-analysis of the deposited data

How the results depend on the processing

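Of 146 alternative values over 20 results, 138 were labelled as the same. For tested genes this meant the same call, and a change of sign was allowed where neither value passed. For numbers of genes called it meant within a set factor, and for untested values a move below the protoplast spread. Ratios per kb, and ratios and shares without 1 protoplast library, had to meet this by construction. So had the 4-library values with organelle genes left out, so the 138 do not measure robustness. In the 4 libraries PDRP1 had log2 fold changes of 0.21 without TMM, 0.50 with the replicate block (adjusted p = 0.0637 in edgeR) and 0.49 in the complete libraries, none past the threshold, and 0.46 to 0.51 with 1 library left out. MDH6 passed it at 0.59 scaled to the MS1 markers, and ranged between 0.077 and 0.27 with 1 library left out. In the complete libraries PDRP1 ranged between 0.487 and 0.495 with 1 protoplast library left out, values with no test; leaf 2 cannot be left out there, and no block can be fitted. Deviations of same-numbered libraries correlated at -0.208. With 2 libraries a group, crossed pairs give the opposite sign by construction, so this value cannot show whether the libraries were paired. The labels name no pairs, and the reported fits used no block. The block called 5204 genes, and pairs crossed (an alternative chosen after seeing the data, as were list counts by setting) called 6017, against 5705 without a block. The split of calls followed the scaling: 2802 higher and 2903 lower as reported, 2120 and 3684 without TMM, and 3685 and 2008 scaled to the MS1 markers; over the complete libraries 5200 and 5552, 4047 and 8053, and 7381 and 3282. All 12 BS markers were lower in the complete libraries under each setting run, except that 11 were when scaled to the MS1 markers. A log2 fold change of 0.50 did not pass with 1 leaf library (PDK1) and passed with 2 (PDRP1).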

Other observations

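The gene next to CAH1 on chromosome 3, Zm00001d044100 at chr3:219087568-219088353, was chosen after its values were seen. It had 330 and 398 CPM in protoplasts, against 2.24 CPM in leaf 2 (log2 fold change 7.34, SE 0.46, adjusted p = 2.98e-06 in edgeR), while CAH1 itself was not called. The next genes beyond it, Zm00001d044101 and Zm00001d044102, had 21.8 and 19.9 CPM and 21.9 and 20.6 CPM in protoplasts, against 30.0 and 21.9 CPM in leaf 2, and were not called (adjusted p of 0.083 and 0.892 in edgeR).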
